A study of Mus musculus with 8 samples.

Results

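The cadherin superfamily genes described here are 46 genes, of 13575 in the deposited table, taken by a rule on symbols that name a numbered cadherin, a protocadherin or a Fat, Dachsous, Celsr or calsyntenin protein. The rule itself reads only symbols, but the members were chosen with earlier results of these data known. Of the 46, 10 were Cdh genes, 4 were Fat or Dchs genes, 1 was a Celsr gene and 1 a Clstn gene, 9 were protocadherins outside the clusters, and 21 were clustered protocadherins (1 Pcdha, 4 Pcdhb and 16 Pcdhg genes). RNA was sequenced from retinal astrocytes (AC). By the study's text they were cultured from the pooled retinas of a litter of 4-week-old mice of both sexes, after CD31 beads took out endothelial cells. Both groups were grown with interferon-γ in the medium. The groups were 4 Cyp1b1+/+ libraries (strain C57BL/6) and 4 libraries labelled Cyp1b1-/-, whose strain entries read C57BL/7, C57BL/8, C57BL/9 and C57BL/9, which may be an entry error. How the 4 replicates of a group were obtained was not given in the sources used here, so p-values measure only the spread between these libraries, which may be technical.

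Cyp1b1, the targeted gene (ENSMUSG00000024087), encodes a cytochrome P450 enzyme. Its normalized value, the count scaled by the authors to a common library size, stood at 749, 829, 856 and 882 for Cyp1b1+/+ (replicates 1 to 4, the order used throughout) and at 1296, 1276, 1288 and 1368 for the libraries with the Cyp1b1-/- label. It was therefore higher where the label says that the gene was deleted (log2 fold change 0.66, SE 0.05, limma adjusted p = 3.11e-06), and these libraries are named by their label throughout. Which part of the gene was deleted was not given in the sources used here. Totals per library were 19261729 to 20134745 after scaling. The raw depth is given in the study's text as an average of reads for each genotype but not for single libraries, so the counting error of single values is unknown. Of 11 astrocyte markers 6 were analysed, with a sum of 2619 to 2679 for Cyp1b1+/+ and 2934 to 4865 for the other group. Most of this sum was Glul (1591 to 1769 over the 8 libraries), which did not pass the test described below, and Gja1 (736 to 3124). Gja1 passed as higher (log2 fold change 0.95, limma adjusted p = 0.0129). Sox9 (86 to 119), Slc1a3 (16 to 32) and Slc1a2 (11 to 20) were low and did not pass. The values of 4865 and 3124 were those of replicate 2 labelled Cyp1b1-/-, whose fellows had Gja1 at 1180 to 1232. Pax2, a transcription factor of the retinal astrocyte lineage, was at 28 to 39 for Cyp1b1+/+ and at 0 to 1 for the other group, and Gfap, Aqp4, S100b and Aldh1l1 were not analysed here. Transcripts of the Y chromosome differed too, with Ddx3y at 0 to 1 for Cyp1b1+/+ and at 1230 to 1324 for the other group. The study's text describes mice of both sexes, but the Cyp1b1+/+ libraries held almost no RNA of this Y-linked gene. The genotype label and the sex of the cells therefore cannot be told apart. Replicate 2 labelled Cyp1b1-/- stood apart in the 4 fibroblast markers analysed (of 7 listed), which summed to 174058 there against 1924 to 2168 in the other 3 libraries labelled Cyp1b1-/- and 2689 to 3593 in Cyp1b1+/+ libraries. Among the other marker lists, that of Müller glia (2 of 6 analysed) summed to 4576 to 5302 for Cyp1b1+/+ and 1753 to 2082 for the other group, that of oligodendrocytes and Schwann cells (2 of 5) to 244 to 288 and 61 to 81, and that of microglia and macrophages (2 of 7) to 75 to 96 and 39 to 52. The endothelial list (3 of 8) summed to 297 to 356 and 218 to 274, with Kdr and Egfl7 lower. In the list of pericytes and smooth muscle (3 of 8) the sums overlapped. Most of each sum was Acta2, at 21320 to 25862 and 23895 to 34943, which did not pass (log2 fold change 0.25, limma adjusted p = 0.0985). Pdgfrb and Notch3 passed as lower. Replicate 2 labelled Cyp1b1-/- held the Acta2 value of 34943 and was high in Pdgfrb and Notch3 too. Its Pdgfrb, at 738, lay within the Cyp1b1+/+ range (725 to 883), and its Notch3 was at 148, against 53 to 72 in its fellows. The list of neurons and photoreceptors (3 of 9) summed to 984 to 1051 and 1119 to 2238, and none of its genes passed the test. The value of 2238 was that of the same replicate, with Tubb3 at 2198 against 1084 to 1104 in its fellows. In such bulk libraries fewer cells of a type and less RNA per cell cannot be told apart.

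Cadherins are transmembrane proteins whose extracellular repeats bind calcium and, in most members, the same cadherin on the neighbouring cell. Classical cadherins hold adherens junctions together through catenins, which connect their tails to actin. Clustered protocadherins are made from variable exons, each with its own promoter, and the set chosen gives a cell a surface identity. The giant Fat and Dachsous cadherins bind each other across cell borders, and Celsr proteins orient cells in the plane of a tissue. In the retina, R-cadherin and N-cadherin (Cdh4 and Cdh2) are known from glia and neurons, and in mouse retina R-cadherin was linked to the guidance of vessels along astrocytes.

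The bases before the start of 4 changed members outside the clusters are shown because these genes were well expressed and their changes were large against the spread. They were chosen after their values were seen, 1 higher (Cdh23) and 3 lower (Fat4, Pcdh9 and Pcdh17) in the libraries labelled Cyp1b1-/-. Each run holds the 250 bases upstream of the RefSeq start on GRCm38.p6, 5′ to 3′ on the gene's strand, with CG dinucleotides, the sites of DNA methylation, in capitals. The Cdh23 run is chr10:60696491-60696740 (minus strand), Fat4 chr3:38886690-38886939 (plus), Pcdh9 chr14:93890680-93890929 (minus) and Pcdh17 chr14:84443313-84443562 (plus).
Cdh23: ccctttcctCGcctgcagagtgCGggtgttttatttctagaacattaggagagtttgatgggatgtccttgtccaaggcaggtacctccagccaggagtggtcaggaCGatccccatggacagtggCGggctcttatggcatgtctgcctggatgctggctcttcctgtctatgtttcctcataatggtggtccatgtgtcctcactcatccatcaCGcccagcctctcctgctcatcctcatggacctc
Fat4: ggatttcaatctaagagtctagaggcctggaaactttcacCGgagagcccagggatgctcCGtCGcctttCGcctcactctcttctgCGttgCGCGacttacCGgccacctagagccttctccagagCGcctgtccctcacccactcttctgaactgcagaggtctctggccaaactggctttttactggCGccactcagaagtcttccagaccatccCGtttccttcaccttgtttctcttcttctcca
Pcdh9: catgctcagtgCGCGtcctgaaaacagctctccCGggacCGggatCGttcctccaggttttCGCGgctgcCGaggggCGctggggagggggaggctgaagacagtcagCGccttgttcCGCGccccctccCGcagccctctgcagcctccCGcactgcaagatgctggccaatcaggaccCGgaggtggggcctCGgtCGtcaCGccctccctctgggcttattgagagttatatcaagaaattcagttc
Pcdh17: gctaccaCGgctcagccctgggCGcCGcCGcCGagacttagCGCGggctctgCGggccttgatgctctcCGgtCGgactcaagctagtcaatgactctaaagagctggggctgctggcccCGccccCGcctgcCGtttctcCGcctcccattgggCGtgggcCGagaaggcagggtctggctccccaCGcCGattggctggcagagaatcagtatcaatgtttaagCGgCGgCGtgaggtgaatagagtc

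The run of Cdh23 held 5 CG dinucleotides, that of Fat4 11, that of Pcdh9 18 and that of Pcdh17 21. Over all 32851 promoters of the same length the quartiles were 2, 6 and 16. The E-box CACCTG, the letters to which Snail and ZEB factors bind, was in none of the 4 on either strand, and 17.2% of all promoters held it. Of 19 entries for 18 members, 2 held it, those of Celsr2 and Fat1, and no entry matched Cdh4. These counts describe the letters in these windows only.

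Taking the libraries labelled Cyp1b1-/- against Cyp1b1+/+, 17 of the 46 members passed the test as higher, 20 as lower, and 9 did not pass (limma on log2(value + 1), Benjamini-Hochberg over 13575 genes, adjusted p under 0.05). Over all genes 26.8% were called higher and 26.9% lower, against 37% and 43.5% of the members. With a change over 2-fold as well, 10 members were higher and 15 lower, or 21.7% and 32.6%, where 2.60% and 4.52% of all genes were. The median absolute log2 fold change was 1.19 over the members and 0.22 over all genes. The groups did not overlap in 34 members (73.9%) and in 49.3% of all genes. Without replicate 2 labelled Cyp1b1-/- the counts were 18 higher and 21 lower. The signed median was near 0 (-0.10), with calls in both directions. Since the members were chosen with earlier results of these data known, these shares describe the set only.

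**Figure D1:**
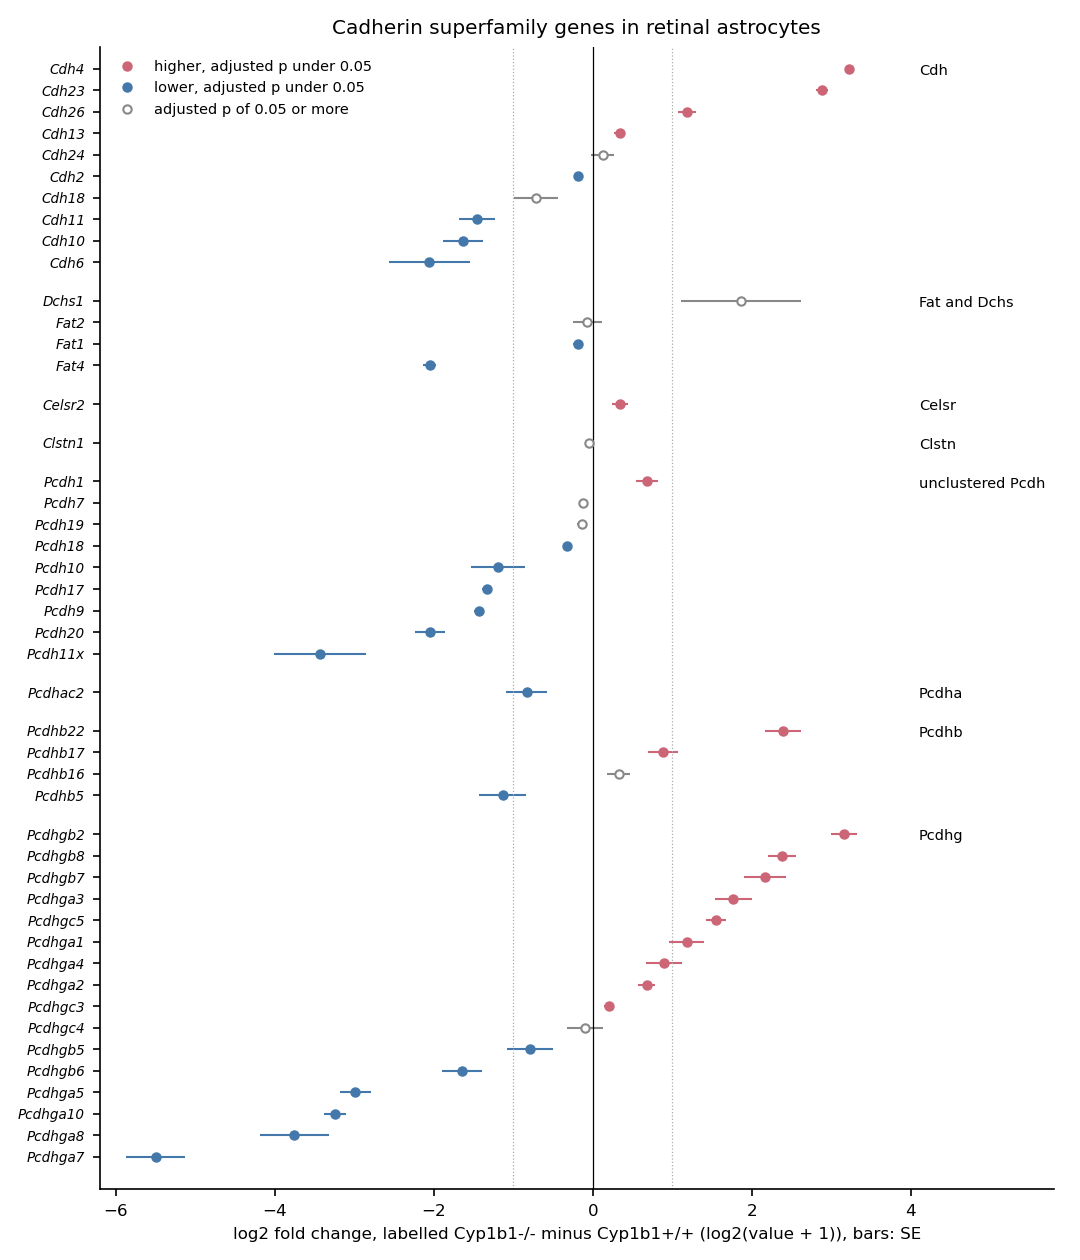
Log2 fold change (libraries labelled Cyp1b1-/- minus Cyp1b1+/+, on log2(value + 1)) of the 46 genes by subgroup, with bars for the standard error, filled points for an adjusted p under 0.05 and dotted lines at 2-fold. The changes run from -5.49 for Pcdhga7 to 3.22 for Cdh4, with members on both sides of 0 among the Cdh and Pcdhg genes.

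Among the classical cadherins, Cdh4 and Cdh2 were analysed and moved in opposite directions. Cdh4 (R-cadherin, chromosome 2, 179442431 to 179899373, GRCm38) was at 132, 139, 126 and 126 in Cyp1b1+/+ replicates 1 to 4 and at 1192, 1155, 1310 and 1262 in the libraries labelled Cyp1b1-/-. Every library of the second group was far above every library of the first. Its mean rose 9.41-fold, from 130.8 ± 6.18 to 1230 ± 69.5 (SD, n = 4), and the log2 fold change was 3.22 (SE 0.06, limma adjusted p = 1.25e-10), the most positive among the 46. Cdh2 (N-cadherin), which had the highest level per kb of transcript among the 46, was at 14483, 16288, 16381 and 15646 in Cyp1b1+/+ and 13396, 13162, 14633 and 14190 in the libraries labelled Cyp1b1-/-. Its groups overlapped, and its fall was small (log2 fold change -0.18, SE 0.05, limma adjusted p = 0.0112).

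Cdh23, the long cadherin of hair cell tip links, rose too (chromosome 10, 60302748 to 60696490). It was at 167, 191, 202 and 191 in Cyp1b1+/+ libraries and at 1363, 1255, 1505 and 1442 in the others. This is a 7.41-fold difference of means (log2 fold change 2.88, SE 0.07, limma adjusted p = 1.12e-09), with no overlap. Cdh26, an atypical cadherin known from human epithelia, was at 66, 55, 66 and 53 and at 135, 139, 153 and 122 (log2 fold change 1.18, SE 0.11, limma adjusted p = 1.32e-05). Its groups also lay apart. Cdh13 (T-cadherin), which has a lipid anchor in place of a cytoplasmic tail and binds adiponectin, rose from 1470, 1780, 1662 and 1673 to 1930, 2365, 2103 and 1928 (log2 fold change 0.34, SE 0.07, limma adjusted p = 0.00336).

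**Figure D2:**
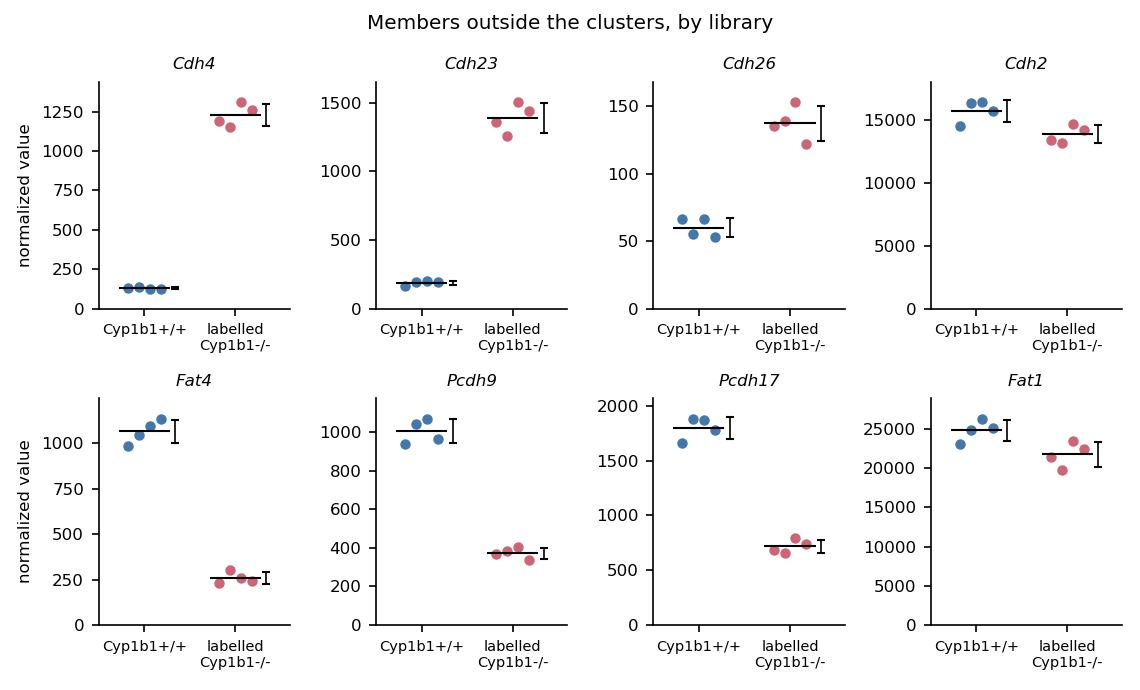
Normalized value by library (points) of 8 members outside the clusters, with the group mean (line) and 1 SD (bar to the right, n = 4), each axis from 0. Cdh4, Cdh23 and Cdh26 are higher and Fat4, Pcdh9 and Pcdh17 lower in every library labelled Cyp1b1-/-, while Cdh2 and Fat1 differ little and their groups overlap.

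The type II cadherins that passed the test were all lower in the libraries labelled Cyp1b1-/-. Cdh11 (OB-cadherin), a cadherin of mesenchymal cells, was at 4512, 4954, 4791 and 4646 in Cyp1b1+/+ and at 1373, 3170, 1431 and 1405 in the others. The groups did not overlap, but replicate 2 labelled Cyp1b1-/- was far above its 3 fellows. The log2 fold change was -1.46 (SE 0.23, limma adjusted p = 0.000391) with it and -1.75 without it. Cdh6 (K-cadherin), at 41, 38, 40 and 43 against 5, 32, 4 and 9, had the same replicate high, and its log2 fold change of -2.06 (SE 0.51, limma adjusted p = 0.00627) became -2.63 without it. Cdh10, a neuronal cadherin, fell from 21, 26, 27 and 21 to 6, 6, 9 and 7 (log2 fold change -1.64, SE 0.25, limma adjusted p = 0.000325), and here replicate 2 was not high. Cdh18 (8 to 22 over the 8 libraries, log2 fold change -0.71, SE 0.28, limma adjusted p = 0.0527) and Cdh24 (117 to 192, log2 fold change 0.12, SE 0.14) did not pass, though Cdh18 did without Cyp1b1+/+ replicate 2 or replicate 2 labelled Cyp1b1-/- (0.0293 and 0.0345).

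Replicate 2 labelled Cyp1b1-/- was also high in Dchs1 and Pcdh10. Dchs1 (Dachsous 1), the ligand of Fat4, was at 12, 19, 13 and 9 in Cyp1b1+/+ libraries and at 28, 347, 24 and 24 in the others. All 4 labelled libraries were above the rest, yet the test did not pass (log2 fold change 1.86, SE 0.75, limma adjusted p = 0.0601). Without replicate 2 the log2 fold change was 0.93 and passed (limma adjusted p = 0.0133), and without replicate 3 or 4 of that group it was 2.19 with adjusted p of 0.049 and 0.0492. Pcdh10 was at 95, 113, 109 and 92 and at 38, 105, 31 and 30, so that replicate 2 lay within the Cyp1b1+/+ range (log2 fold change -1.19, SE 0.34, limma adjusted p = 0.0135, and -1.60 without replicate 2). The 4 fibroblast markers rose in the same library, Col1a1 to 122121 against 1643 to 1843 in its fellows, and their part in these values was not tested.

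**Figure D3:**
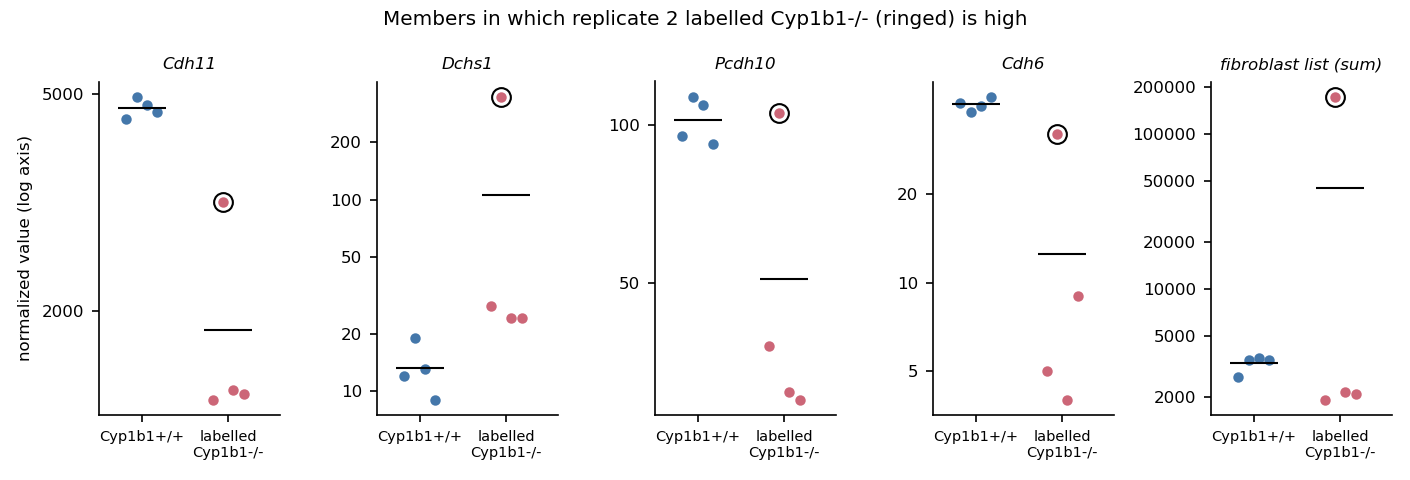
Normalized values by library on log axes of Cdh11, Dchs1, Pcdh10 and Cdh6, and of the sum of 4 fibroblast markers, with group means as lines and replicate 2 labelled Cyp1b1-/- ringed. The ringed library is the highest of its group in each panel, at 3170, 347, 105, 32 and 174058.

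Of the 3 Fat cadherins analysed, Fat4 fell most. Fat4, the receptor of Dchs1 (chromosome 3, 38886940 to 39011985), was at 988, 1046, 1094 and 1136 in Cyp1b1+/+ libraries and at 230, 301, 261 and 241 in the others. It fell 4.13-fold, from 1066 ± 63.7 to 258 ± 31.3 (SD, n = 4), with a log2 fold change of -2.05 (SE 0.08, limma adjusted p = 3.12e-08). Fat1, known for a part in cell migration and in cell contacts, had the highest normalized value of the 46 before correction for length, at 23019, 24875, 26316 and 25100 and at 21392, 19759, 23457 and 22413. Its groups overlapped, and the log2 fold change was -0.19 (SE 0.06, limma adjusted p = 0.0191). It no longer passed without Cyp1b1+/+ replicate 3 or 4 (limma adjusted p = 0.0597 and 0.0507). Fat2, known from cerebellar granule cells, was at 23 to 35 in all libraries and did not pass (log2 fold change -0.07, SE 0.18). Celsr2, a planar polarity cadherin, was at 102, 131, 126 and 126 and at 152, 142, 170 and 151 (log2 fold change 0.34, SE 0.10, limma adjusted p = 0.0144). Clstn1 (calsyntenin 1), which links cargo to kinesin, was at 2253 to 2672 and 2338 to 2584 and did not pass (log2 fold change -0.04, SE 0.06).

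Protocadherins outside the clusters were mostly lower in the libraries labelled Cyp1b1-/-, with 6 of 9 lower (66.7%), 1 higher (11.1%) and 2 that did not pass. Over all genes 26.9% were lower and 26.8% higher. The median log2 fold change was -1.19, beside -0.00 over all genes. Protocadherins of this kind mediate weaker adhesion than classical cadherins and are best known from neural circuits. Pcdh17 (chromosome 14, 84443563 to 84539002), known from presynaptic sites in the basal ganglia of mice, fell from 1664, 1882, 1871 and 1781 to 680, 661, 792 and 740. This is a 2.51-fold difference of means (log2 fold change -1.33, SE 0.06, limma adjusted p = 9.63e-08). Pcdh9, on the same chromosome (93013410 to 93890679), fell from 940, 1043, 1069 and 963 to 367, 382, 403 and 335 (log2 fold change -1.43, SE 0.06, limma adjusted p = 7.66e-08). In both genes the groups were well apart and the 4 libraries of a group were close together. Pcdh20, the third member on chromosome 14 that fell, was at 64, 63, 55 and 51 and at 15, 13, 16 and 10 (log2 fold change -2.04, SE 0.19, limma adjusted p = 1.03e-05). Pcdh18 fell less, from 3446, 3853, 3844 and 3585 to 2801, 2900, 3054 and 2974 (log2 fold change -0.33, SE 0.04, limma adjusted p = 0.000135).

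The X chromosome carries 2 members. Pcdh11x was at 32, 28, 42 and 34 in Cyp1b1+/+ libraries and at 0, 8, 2 and 3 in the others, with no overlap (log2 fold change -3.43, SE 0.58, limma adjusted p = 0.000601). Pcdh19, whose loss causes an epilepsy in human females, was at 2839, 3280, 3269 and 3038 and at 2739, 2545, 2988 and 3046 and did not pass (log2 fold change -0.14, SE 0.06, limma adjusted p = 0.102, and 0.0392 without Cyp1b1+/+ replicate 1). The Y-linked Eif2s3y was at 0 to 1 in the first group and 1411 to 1553 in the second, and its part in the values of the X-linked members was not tested. Pcdh7 (1752 to 2114 over the 8 libraries, log2 fold change -0.12, SE 0.06, limma adjusted p = 0.106, and 0.00553 without Cyp1b1+/+ replicate 1) did not pass. Pcdh1, known from epithelial cells, was the 1 member of this subgroup that rose, from 38, 51, 54 and 50 to 71, 82, 79 and 78 (log2 fold change 0.68, SE 0.13, limma adjusted p = 0.00162).

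The clustered protocadherins lie side by side on chromosome 18. Of the 21 analysed, 11 were higher (52.4%) and 8 lower (38.1%), where 26.8% and 26.9% of all genes were. The groups did not overlap in 18 (85.7%), and in 49.3% of all genes. An annotated Pcdhg gene (GENCODE release M21, GRCm38) is 1 variable exon spliced to 3 constant exons, of 2116 or 2119 bases as annotated, that all 22 Pcdhg genes use, and the Pcdha genes share 3 others of 2860 bases. In the 16 Pcdhg genes analysed, 41.1% to 64.0% of all 100-base windows of a transcript also occur in another annotated member, and in Pcdhac2 47.7% do. A read from these windows cannot be placed in 1 gene unless its mate lies outside them. Reads that could not be placed were divided by the authors' counting tool (RSEM), so single values of these genes are uncertain. As annotated, only the variable exon tells the genes of a cluster apart. In Pcdhga4, with 64.0% of windows shared, the shared exons are 2119 of 4727 bases, so part of its variable exon is shared too. In the 4 Pcdhb genes, single exons that share no annotated exon, 0 to 5.47% of windows are shared.

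The summed value of the 16 Pcdhg genes was close between the groups, at 5591, 6551, 6383 and 5976 in Cyp1b1+/+ and 6124, 5807, 6550 and 6289 in the libraries labelled Cyp1b1-/- (6125 ± 430.3 and 6192 ± 311, SD, n = 4). The genes within this sum were not close. Of them 9 were higher (56.2%, beside 26.8% of all genes), 6 lower (37.5%, beside 26.9%) and 1 did not pass. The type C gene Pcdhgc3, whose protein inhibits Wnt signals through Axin1, made up most of the sum. It was at 3559, 4160, 4083 and 3879 and at 4461, 4248, 4756 and 4529. Its share of the sum was 63.5% to 64.9% in Cyp1b1+/+ and 72.0% to 73.2% in the others, and its log2 fold change was 0.20 (SE 0.05, limma adjusted p = 0.00893). Among the 13 genes of types A and B, those that are chosen cell by cell in neurons, 7 were higher (53.8%) and 6 lower (46.2%). The groups did not overlap in any of these, and did not in 49.3% of all genes.

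Those 13 genes lay in runs of like direction along the cluster. From Pcdhga1 (start at 37661793) over 28.0 kb to Pcdhgb2, all 5 analysed were higher, and their sum was 226, 242, 254 and 232 in Cyp1b1+/+ and 865, 836, 909 and 902 in those labelled Cyp1b1-/-. The next 6 analysed (Pcdhga5, Pcdhga7, Pcdhga8, Pcdhgb5, Pcdhgb6 and Pcdhga10, from 32.6 to 85.2 kb) were all lower. Their sum was 1583, 1936, 1796 and 1652 against 202, 160, 194 and 213. Beyond them Pcdhgb7 and Pcdhgb8, at 89.8 and 100 kb, were higher again, and their sum was 64, 61, 108 and 59 against 339, 336, 384 and 354. The 3 stretches were drawn after the values were seen and describe the order only. Within them Pcdhgb1, Pcdhga6, Pcdhgb4, Pcdhga9 and Pcdhga11 were not analysed here, so the direction of these genes is unknown. Since reads from shared exons were divided between the Pcdhg genes, their values are not independent of each other.

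**Figure D4:**
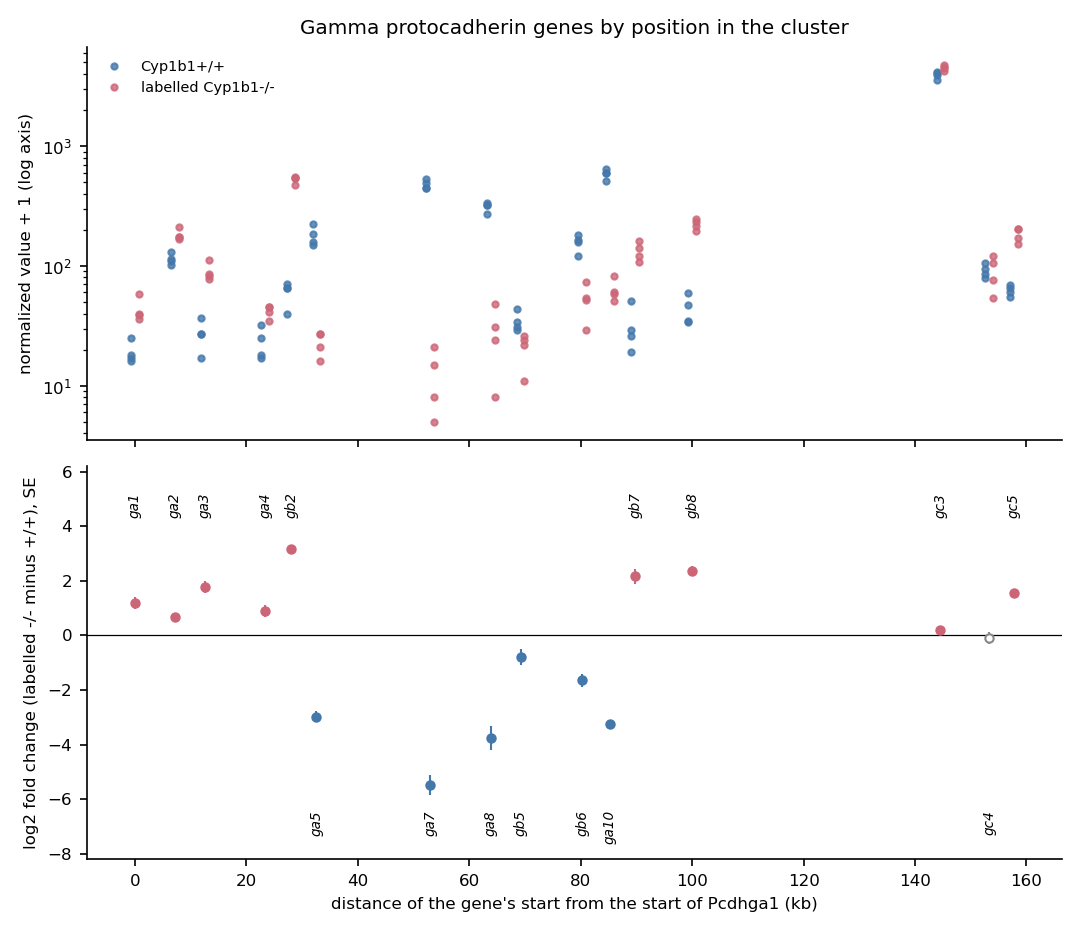
The 16 Pcdhg genes by distance of their start from that of Pcdhga1 in kb. Upper panel, normalized value + 1 in each library on a log axis. Lower panel, log2 fold change with its standard error, open where the adjusted p was 0.05 or more. Direction changes between Pcdhgb2 at 28.0 kb and Pcdhga5 at 32.6 kb, and again between Pcdhga10 at 85.2 kb and Pcdhgb7 at 89.8 kb.

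Pcdhga7 was nearly lost in the libraries labelled Cyp1b1-/-, from 447, 526, 492 and 446 to 20, 4, 7 and 14 (log2 fold change -5.49, SE 0.37, limma adjusted p = 1.08e-06), which is a 42.5-fold difference of means. Pcdhga10 fell from 508, 646, 595 and 599 to 59, 81, 57 and 50 (log2 fold change -3.25, SE 0.14, limma adjusted p = 4.87e-08). Together these 2 genes made up a mean of 51.9% of the type A and B sum in Cyp1b1+/+ libraries and 5.17% in the others. Pcdhga8 fell from 322, 334, 318 and 271 to 23, 7, 47 and 30, and Pcdhga5 from 157, 224, 182 and 147 to 26, 15, 20 and 26. Their log2 fold changes were -3.75 (SE 0.44, limma adjusted p = 4.81e-05) and -2.99 (SE 0.20, limma adjusted p = 9.93e-07), and no library of a group reached the other group. Pcdhgb6 (121 to 179 against 28 to 72, log2 fold change -1.64, limma adjusted p = 0.000293) fell less, and Pcdhgb5 (28 to 43 against 10 to 25, log2 fold change -0.79, limma adjusted p = 0.0405) no longer passed when any of 5 libraries was left out, Cyp1b1+/+ replicates 2, 3 and 4 and replicates 3 and 4 labelled Cyp1b1-/- (limma adjusted p of 0.0574 to 0.114).

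Pcdhgb2 took the leading place in the libraries labelled Cyp1b1-/-. It rose from 39, 65, 64 and 69 to 539, 474, 552 and 535, or 8.86-fold (log2 fold change 3.16, SE 0.16, limma adjusted p = 1.63e-07). Its share of the type A and B sum was 2.08% to 3.55% in Cyp1b1+/+ and 35.6% to 38.3% in the others. Pcdhgb8, a polymorphic pseudogene in GENCODE, rose from 46, 33, 58 and 34 to 233, 215, 244 and 194 (log2 fold change 2.38, SE 0.17, limma adjusted p = 1.86e-06). Pcdhgb7 rose from 18, 28, 50 and 25 to 106, 121, 140 and 160 and Pcdhga3 from 26, 36, 26 and 16 to 85, 110, 82 and 77, with log2 fold changes of 2.17 (SE 0.27, limma adjusted p = 7.52e-05) and 1.77 (SE 0.23, limma adjusted p = 9.84e-05). Pcdhga1 (15 to 24 against 35 to 57), Pcdhga2 (101 to 130 against 168 to 211) and Pcdhga4 (16 to 31 against 34 to 44) rose too, by 1.18, 0.68 and 0.89 on the log2 scale. The sum of the 8 type A genes was 1621 to 1907 in Cyp1b1+/+ and 454 to 488 in the others, while that of the 5 type B genes was 252 to 381 and 863 to 999.

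**Figure D5:**
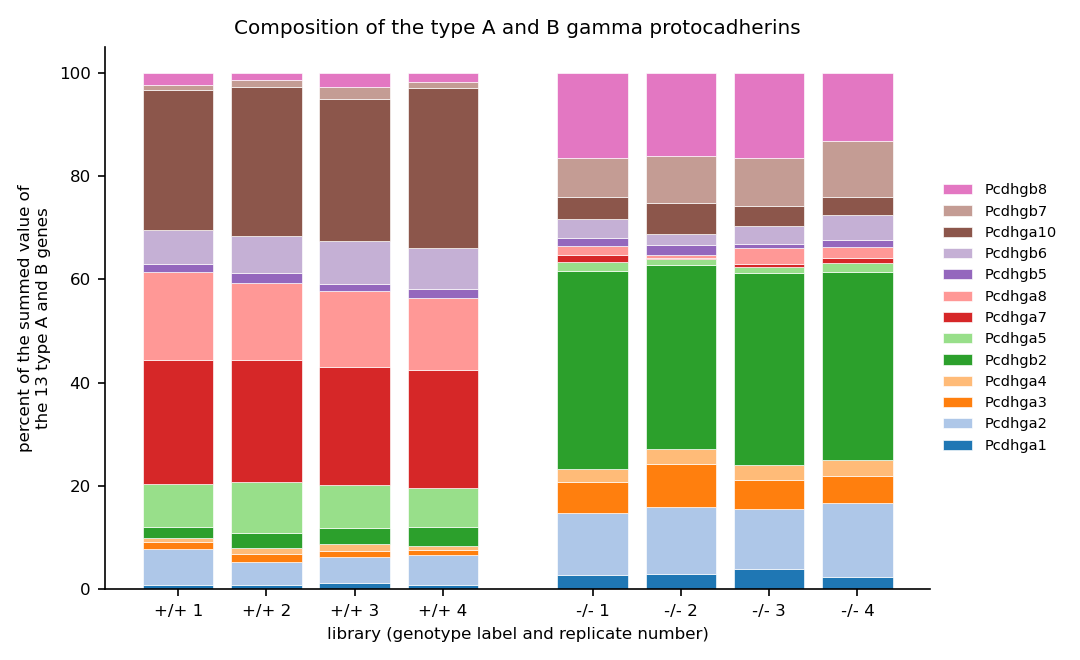
Share of each type A or B Pcdhg gene in the summed normalized value of the 13 genes, in percent, for each of the 8 libraries. Pcdhga10, Pcdhga7 and Pcdhga8 lead in the Cyp1b1+/+ libraries and Pcdhgb2 in the libraries labelled Cyp1b1-/-, with Pcdhgb8 and Pcdhga2 next, and the 4 libraries of a group hold near the same shares.

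The type C genes differed from each other. Pcdhgc5 rose from 54, 68, 64 and 60 to 204, 152, 203 and 171 (log2 fold change 1.55, SE 0.12, limma adjusted p = 2.93e-06). Pcdhgc4, needed for the survival of neurons in mice, was at 105, 84, 78 and 94 and at 53, 75, 104 and 120 and did not pass (log2 fold change -0.09, SE 0.23, limma adjusted p = 0.749). On the opposite strand, BC037039 overlaps 1559 bases of Pcdhgc3 and was at 5 to 29. Gm26672 overlaps 2613 bases of Pcdhga10 and 629 of Pcdhgb7 and was not analysed here. Whether the counting used strand was not given in the sources used here, so reads from the overlapping bases cannot be told apart. The same holds for Pcdh7 with 4932441J04Rik (2235 bases, at 37 to 54).

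Few genes of the other clusters were analysed. Pcdhac2, a type C gene of the alpha cluster that serotonergic neurons of mice use, was at 37, 43, 49 and 49 and at 21, 17, 24 and 41 (log2 fold change -0.83, SE 0.25, limma adjusted p = 0.0182). Its groups overlapped, and it no longer passed without Cyp1b1+/+ replicate 3 or 4 (limma adjusted p = 0.0501 and 0.0508). In the beta cluster Pcdhb22 rose from 7, 8, 13 and 10 to 43, 59, 53 and 58 (log2 fold change 2.39, SE 0.23, limma adjusted p = 1.18e-05). It overlaps Pcdhb21 by 455 of its 6609 bases on the same strand, so reads from those bases may belong to either. Pcdhb17 rose from 37, 40, 34 and 33 to 76, 45, 80 and 74 (log2 fold change 0.88, SE 0.19, limma adjusted p = 0.00274), and Pcdhb5 fell from 15, 24, 23 and 25 to 6, 13, 9 and 10 (log2 fold change -1.13, SE 0.29, limma adjusted p = 0.0082). Pcdhb16 (55 to 83 against 72 to 97, log2 fold change 0.33, SE 0.15, limma adjusted p = 0.0797) did not pass, but did without Cyp1b1+/+ replicate 2 or replicate 4 labelled Cyp1b1-/- (0.0329 and 0.0493). The sum of the 4 beta genes was 114 to 155 in Cyp1b1+/+ and 201 to 239 in the others.

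Levels were compared between genes per kb of the longest annotated transcript, as the mean normalized value per kb. On this scale Cdh2 led in both groups (3242 per kb in Cyp1b1+/+ and 2859 per kb in the libraries labelled Cyp1b1-/-), before Fat1 (1676 and 1469 per kb). In Cyp1b1+/+ libraries Cdh11 and Pcdhgc3 came next and were level, at 836.9 and 836.4 per kb. In the others Pcdhgc3 followed Fat1 at 960 per kb and Cdh11 had dropped to 327 per kb, below Pcdh18 (567 per kb), Clstn1 (552 per kb) and Cdh13 (456 per kb). Cdh4 and Cdh23 moved from 20.5 and 16.9 per kb to 193 and 125 per kb, while Fat4 moved from 66.2 to 16.0 per kb.

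Partners of the cadherins were counted in lists taken with earlier results of these data known, and their shares called stand beside 53.7% over all genes. Of 11 catenins and plakophilins analysed, 6 were higher and 3 lower (81.8% called), with a median log2 fold change of 0.16 beside -0.00 over all genes. p120-catenin (Ctnnd1), which holds cadherins at the membrane, rose from 6208, 5904, 5695 and 5640 to 10383, 9940, 10334 and 10691 (log2 fold change 0.82, SE 0.04, limma adjusted p = 9.55e-08). Plakoglobin (Jup), Ctnnal1 and Ctnnd2 rose by 0.77, 0.72 and 1.11 on the log2 scale. Of 16 adherens junction partners, 6 were higher and 8 lower (87.5% called, median -0.28). The receptor phosphatase Ptprk rose by 1.05 on the log2 scale, and Ptprf and the actin binder Lima1 had log2 fold changes of -1.01 and -0.69. Of 2 other cadherin superfamily genes, Cdhr1, a cadherin of photoreceptors, fell from 94, 116, 103 and 107 to 29, 22, 28 and 26 (log2 fold change -1.96, SE 0.13, limma adjusted p = 1.11e-06).

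Of 16 planar polarity genes, 1 was higher and 5 lower (37.5% called, below the 53.7% over all genes, median log2 fold change -0.05). The Wnt5a receptor Ror2 fell from 48, 50, 67 and 50 to 0, 17, 0 and 2, and Scrib, Ptk7 and Prickle2 had log2 fold changes of -0.24, -0.43 and -0.66. Of 11 genes of cadherin cleavage, 1 was higher and 4 lower (45.5% called, also below it, median -0.06). Adam15 and the proprotein convertase Furin had log2 fold changes of -0.89 and -0.29, the γ-secretase subunit Aph1b one of -0.31, and the sheddase Adam9 one of 0.15. Of 14 protocadherin effectors, 6 were higher and 2 lower (57.1% called, near it, median 0.10). The kinases Fyn and Src and the WAVE subunit Wasf2 rose by 0.45, 0.25 and 0.24 on the log2 scale, and Cyfip1, another WAVE complex subunit, had a log2 fold change of -0.30.

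Of 17 genes known to regulate the clustered protocadherin genes, such as CTCF, cohesin and DNA methyltransferases, 5 were higher and 3 lower (47.1% called, below the 53.7% over all genes, median log2 fold change 0.07). The de novo methyltransferases moved in opposite directions. Dnmt3a rose from 191, 175, 193 and 175 to 275, 275, 291 and 331 (log2 fold change 0.67, SE 0.08, limma adjusted p = 4.14e-05), and Dnmt3b fell from 99, 88, 100 and 93 to 64, 60, 63 and 54 (log2 fold change -0.65, SE 0.10, limma adjusted p = 0.000391). The cohesin subunit Smc3 rose by 0.19, and Setdb1, a histone methyltransferase, had a log2 fold change of -0.30. Of 9 transcription factors of epithelial to mesenchymal transition, many of which bind E-boxes, 4 were higher and 2 lower (66.7% called, median 0.10). Snai1 fell, at 163 to 167 for Cyp1b1+/+ and 100 to 120 for the other group (log2 fold change -0.58, SE 0.08, limma adjusted p = 0.000202), and Tcf3, Twist1 and Zeb1 rose by 0.50, 0.55 and 0.54. Replicate 2 labelled Cyp1b1-/- was the highest library for Zeb1 (987, against 748 to 810 in its fellows) and Twist1 (848, against 703 to 744). Zeb2 was at 2474, 2350, 2288 and 2317 in Cyp1b1+/+ and at 1722, 2971, 1751 and 1678 in the others, so that the same replicate was high. It did not pass (log2 fold change -0.26, limma adjusted p = 0.188) but was lower without that replicate (-0.46, limma adjusted p = 3.07e-07), as was Snai2 (0.02 with it, and -0.19 with limma adjusted p = 0.0196 without it). The part of the fibroblast markers of this library was not tested.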

How the data were processed

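RNA of 4 Cyp1b1+/+ and 4 labelled Cyp1b1-/- retinal AC samples was sequenced as poly-A TruSeq libraries with paired reads. The authors used bcl2fastq 2.20, aligned reads to GRCm38.p6 with STAR 2.5.3a, counted them per gene with RSEM, removed low-abundance genes, scaled by TMM and compared the genotypes in edgeR 3.28.0. The deposited score is the TMM-scaled count rounded to a whole number, called the normalized value here; the raw depth of single libraries is therefore unknown. The authors' fold changes and p-values were not used. The rule on symbols leaves out 1 numbered cadherin, which is not reported here.

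All 13575 genes were tested with limma 3.58.1 (R 4.3.3, trend, log2(value + 1), no covariates, two-sided), with Benjamini-Hochberg adjustment over all of them. The script was tested on simulated data. The exact permutation test of a single gene cannot go below 0.029 with 4 against 4. Members and lists were chosen with earlier results of these data known. The text names the classical cadherins, per subgroup up to 4 called higher, 4 called lower (largest absolute change) and the 2 highest in level, per pathway list up to 4 with the smallest p and per marker list up to 4 highest in level. Naming of the remaining members, Pax2, Slc1a2, Y-linked and overlapping genes followed a look at the values. Alternatives were pseudocounts of 0.5 and 0.1, median ratio rescaling, equal column totals, a mean of at least 50, at least 10 in every library, the replicate block, limma without the trend and leaving out each library. Gene models are GENCODE M21 and promoters RefSeq (GRCm38.p6). Of 104 annotated genes that the symbols match, 58 were not analysed here. Tables were made with Python 3.11.15, pandas 2.3.3 and numpy 2.4.6, and plots with matplotlib 3.10.9.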

Additional observations from a re-analysis of the deposited data

Results flagged for a closer look

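In groups of 4 libraries, 92 groups (46 genes in both genotypes) were screened for a library far from the other 3 by Dixon's ratio, which chance exceeds in about 1 in 20 groups, and 5 groups were past its critical value. Replicate 2 labelled Cyp1b1-/- was far above its fellows in 3 of them, Cdh11 (3170, against 1373 to 1431), Dchs1 (347, against 24 to 28) and Pcdh10 (105, against 30 to 38). Replicate 4 labelled Cyp1b1-/- was high for Pcdhga2 (211, against 168 to 174), and Cyp1b1+/+ replicate 1 was low for Pcdhgb2 (39, against 64 to 69). Both values stayed on their own group's side of the other genotype.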

How the results depend on the processing

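Of the 46 members, 38 kept their side of the threshold in each alternative that could fit them, and 35 of these also their sign. The other 3, Cdh24, Fat2 and Pcdhgc4, did not pass the test and changed sign in at least 1 alternative. No called member changed direction. With a mean of at least 50, 34 members were tested. The lower members fell in number from 20 to 13 and the lower clustered protocadherins from 8 to 5. The latter were also 5 of 17 tested with at least 10 in every library. That filter takes out genes low in any library. Among the clustered protocadherins these were Pcdhb5, Pcdhga7 and Pcdhga8, which fell, and Pcdhb22, which rose. In these fits no member still tested changed its call. Leaving out 1 library at a time gave 17 to 19 higher and 17 to 22 lower members, 11 to 12 higher and 6 to 8 lower clustered protocadherins, and a Cyp1b1 log2 fold change of 0.61 to 0.69. Same-numbered libraries showed no shared deviation (correlations -0.0463, 0.0233, -0.0015 and -0.0384). This cannot tell whether samples were handled in pairs, which was not given in the sources used here. The replicate block gave 18 higher and 21 lower members, with Dchs1 and Pcdh7 added. Apart from the single libraries named in the report, Cdh18 passed with equal column totals and without the trend. Of the partner genes, Snai2, with a log2 fold change of 0.02, ranged from -0.19 to 0.12 when single libraries were left out, and passed as lower (adjusted p = 0.0196) without replicate 2 labelled Cyp1b1-/-. The raw depth of single libraries is unknown, which limits the low members most, since 12 had a mean under 50 and their counting error is not known.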
